A study of Drosophila melanogaster with 2 samples.

Results

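Of the 4833 bins of 20 kb that tile chromosome arms 2L, 2R, 3L and 3R, 260 had the highest ratio of trans-homolog to cis contacts within the bin, and these 260 bins are described here. Pairs from 2 replicates were pooled, and a pair was used when both its ends lay in the same bin and were at least 3 kb apart. A trans-homolog pair joins the maternal and the paternal copy of an arm, and a cis pair has both ends on the same copy. Bins with at least 200 cis pairs, summed over both copies, were ranked by trans-homolog over cis pairs, and the top 10% were taken. Of the 4833 bins, 2668 reached 200 cis pairs, and the other 2165 had a median of 80. A further 69 bins were excluded because more than 1% of inward pairs at 300 to 600 bp appeared as trans-homolog, which marks places where reads are often given to the wrong homolog. This left 2599 kept bins, of which 260 are called the highest-ratio bins below and 2339 the other kept bins. These bins were chosen by the measured trans-homolog over cis ratio itself, so that ratio is given as a description only.

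The samples were F1 hybrid Drosophila melanogaster embryos aged 2 to 4 h, with DGRP-057 as the maternal line and DGRP-439 as the paternal line, processed by Hi-C in 2 biological replicates. Hi-C joins pieces of DNA that lie close together in the fixed nucleus and reads both ends of each joined piece. Every embryo carried the same cross, so there was 1 condition, no control group and no comparison between conditions. Whole embryos were used, so each value averages over all nuclei of the embryo. A higher ratio could come from more nuclei with paired homologs, from closer contact in each or from fewer cis contacts in the bin. These cannot be told apart.

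In Drosophila the maternal and paternal homologs lie side by side in somatic cells, not only in meiosis, and this somatic pairing is established during early embryogenesis, around the time when the zygotic genome is switched on. Pairing lets an enhancer on one homolog act on the promoter of the other, a form of transvection. In Hi-C, homologs that lie aligned give trans-homolog contacts near the same position of both copies, and a bin's trans-homolog contacts are read relative to its cis contacts.

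The replicates held 24390496 and 24659056 deposited pairs. The kept bins held 28796 trans-homolog and 599561 cis pairs of the ranking measure in replicate 1, and 28351 and 686709 in replicate 2. The highest-ratio bins held 4962 trans-homolog and 54953 cis pairs in replicate 1, and 5087 and 63151 in replicate 2. With 2 replicates of 1 condition no test across samples was possible, and no p-value is given. Differences are set against the spread of the replicates, and neighbouring bins share contacts, so bins are not independent replicates.

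In the pooled data the highest-ratio bins had a median of 7.67 trans-homolog pairs per 100 cis pairs, with a range from 6.70 to 47.6, and the other kept bins had a median of 3.98. Pairs per bin were few. The highest-ratio bins had between 14 and 241 trans-homolog pairs each (median 32) and between 200 and 1761 cis pairs (median 357.5), whereas the other kept bins had medians of 16 and 408. The last bins inside the threshold were 3R:24960001-24980000 with 39 of 582 and 2L:18760001-18780000 with 26 of 388 trans-homolog over cis pairs, both 6.70 per 100. The first bins outside were 2L:3040001-3060000 with 82 of 1225 and 2R:5300001-5320000 with 17 of 254, both 6.69 per 100. The values on either side of the threshold were therefore nearly equal, and no gap separated the highest-ratio bins from the rest of the ranking.

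The ratio of a bin was read in each replicate alone. Across the 2599 kept bins, Spearman's rho between the replicates was 0.477, a description over bins that share libraries and neighbours. When the top 260 bins were chosen in replicate 1, they had a median of 8.94 per 100 in replicate 1 but 5.95 in replicate 2, where the bins not chosen had 3.65. When they were chosen in replicate 2, the median was 7.72 in replicate 2 and 6.80 in replicate 1, against 4.27 for the bins not chosen. Read in the replicate that had not chosen them, these bins were thus 1.63 times (chosen in replicate 1) and 1.59 times (chosen in replicate 2) as high as the rest. In the replicate that had chosen them they were 2.13 and 2.15 times as high. Each direction uses both replicates, so the 2 values are not independent. Of the bins chosen in replicate 1, 216 of 260 lay above the median of the rest in replicate 2, and 225 of 260 did so in the other direction. Part of the height of the ranking measure was therefore particular to the replicate that chose the bins, and part recurred. There were 102 bins in the top 260 of each replicate, which is 39.2% of either list and 3.92% of kept bins, and each of the 102 is among the highest-ratio bins.

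**Figure D1:**
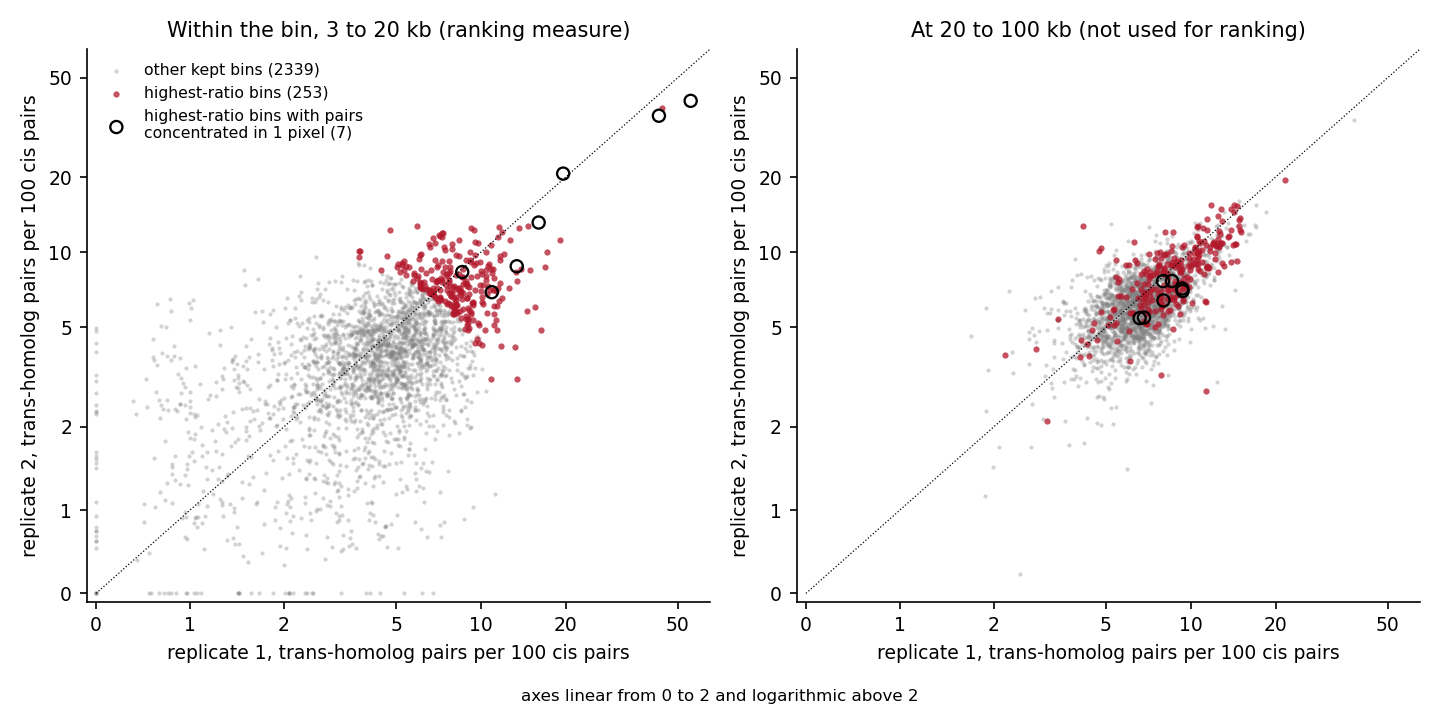
Trans-homolog pairs per 100 cis pairs in replicate 1 (x axis) and replicate 2 (y axis) for 2599 kept bins, each point a bin, with axes linear up to 2 and logarithmic above; the left panel shows the ranking measure and the right panel contacts at 20 to 100 kb, which the ranking did not use. The highest-ratio bins (red) form the upper edge of 1 cloud on the left, with a few bins near 40 per 100 in both replicates, and lie in the upper part of the cloud on the right, where the circled bins with pairs concentrated in 1 pixel sit among the grey points.

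The 3 highest bins stood far above the others. The highest, 2R:13000001-13020000, had 75 trans-homolog and 135 cis pairs in replicate 1 and 61 and 151 in replicate 2, which is 55.6 and 40.4 per 100. The next, 3L:11600001-11620000, had 115 and 262 pairs in replicate 1 and 126 and 332 in replicate 2, or 43.9 and 38.0 per 100. The one after it, 3R:11540001-11560000, had 51 and 119 pairs in replicate 1 and 50 and 142 in replicate 2, or 42.9 and 35.2 per 100. As a share of trans-homolog plus cis pairs these bins came to 32.2%, 28.9% and 27.9%, with Clopper-Pearson 95% intervals of 27.8% to 36.9%, 25.8% to 32.1% and 23.3% to 32.8%, which cover counting error only. The intervals overlap, so the order of these 3 bins is not resolved. Next came 2R:6300001-6320000 with 19.6 and 20.7 per 100, and the remaining bins of the top 10 had pooled ratios from 14.5 down to 12.2 per 100.

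These top bins were not alike in how their trans-homolog pairs were laid out. In 2R:13000001-13020000, 67 of 136 trans-homolog pairs (49.3%) fell into 1 pixel, a square of 1 kb by 1 kb of the contact map, and 130 of the 136 had both reads on the same strand. In 3R:11540001-11560000, 53 of 101 pairs fell into 1 pixel, and only 3 of the 101 were same-strand. Pairs ligated at random orientation would be same-strand about as often as not, and over all highest-ratio bins 50.3% of trans-homolog pairs were same-strand. The 241 pairs of 3L:11600001-11620000 were spread over 34 pixels with 22.8% in the fullest, and 123 were same-strand. This bin was also uneven between the homologs, with 444 maternal and 150 paternal cis pairs.

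A bin was called concentrated when at least 30% of its trans-homolog pairs, and at least 10 pairs, lay in 1 pixel, a criterion set after the values were seen. This held for 7 of the 260 highest-ratio bins, and for 0.308% of kept bins (8 of 2599). The 7 bins include those of rank 1, 3, 4 and 6, of which the last is 3L:18580001-18600000, where 43 of 60 pairs lay in 1 pixel and 52 of 60 were same-strand. In contacts that the ranking did not use, these bins were not as far above the rest. At 20 to 100 kb, 5 of the 7 were above the medians of kept bins, 6.74 and 6.24 per 100, in both replicates. The same held for 34.2% of kept bins and for 72.7% of the 260 highest-ratio bins. The highest-ranked, 2R:13000001-13020000, had 9.36 and 7.0 trans-homolog per 100 cis pairs, 3L:18580001-18600000 had 9.33 and 7.16, and 3R:11540001-11560000 had 6.83 and 5.48. The 7 concentrated bins had medians of 8.0 and 7.0 there, and the other 253 highest-ratio bins had 8.58 and 8.38. By contrast, 3L:11600001-11620000 reached 21.7 and 19.5 per 100 at 20 to 100 kb, the highest of all highest-ratio bins in both replicates. What lies behind the concentrated pixels was not tested.

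**Figure D2:**
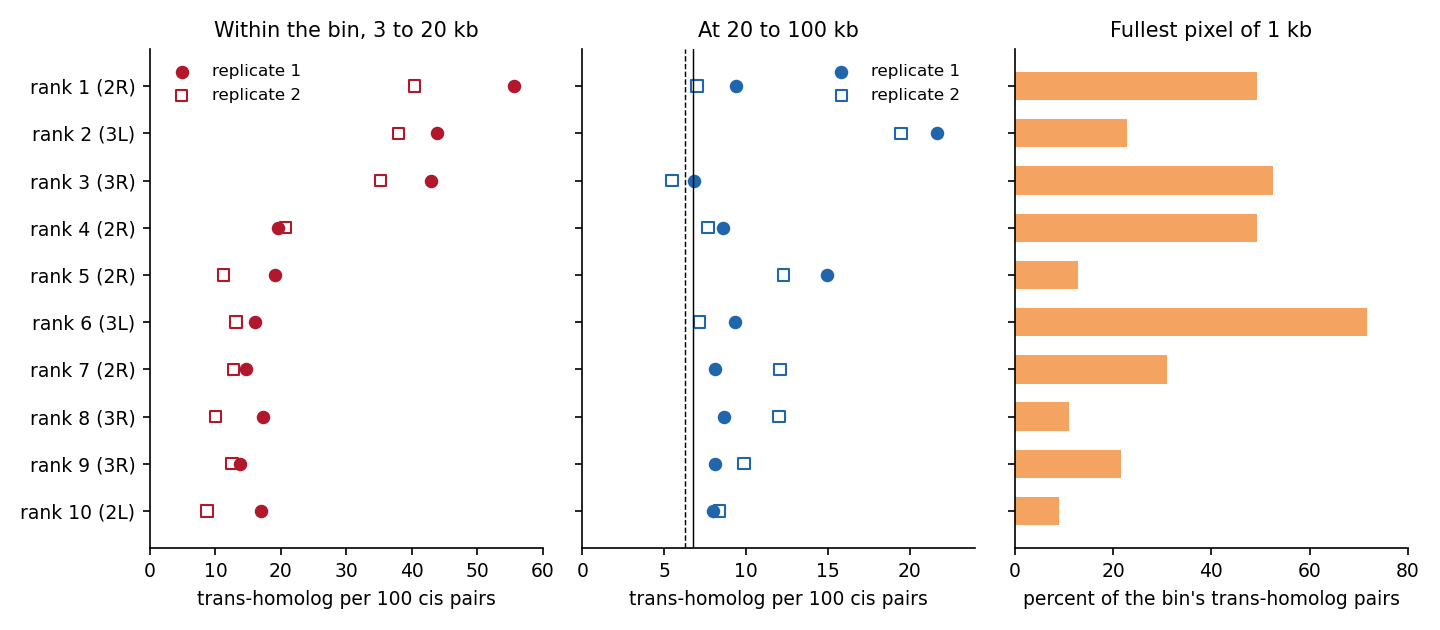
The 10 highest bins in order of rank, with the arm in brackets: trans-homolog per 100 cis pairs within the bin (left), the same at 20 to 100 kb with vertical lines at the medians of kept bins, solid for replicate 1 and dashed for replicate 2 (middle), and the percent of the bin's trans-homolog pairs in its fullest 1 kb pixel (right). Ranks 1, 3, 4 and 6 have the longest bars on the right and lie between 5.48 and 9.36 per 100 in the middle, whereas rank 2 has a shorter bar and lies at 21.7 and 19.5 per 100.

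Other bins also carried many pairs, and their layouts differed. In 3R:25060001-25080000 there were 82 trans-homolog over 599 cis pairs in replicate 1 and 85 over 677 in replicate 2, or 13.7 and 12.6 per 100. Of its 167 trans-homolog pairs, 36 (21.6%) lay in the fullest pixel. Both ends were mapped with a quality of at least 30 in 67 of the 167. In the 3 highest bins, in order of rank, this held for only 2 of 136, 18 of 241 and 10 of 101 pairs. Over all highest-ratio bins it held for 21.5% of trans-homolog pairs. In 2R:21100001-21120000 there were 64 over 555 and 80 over 695, or 11.5 in each replicate, spread over 80 pixels with 4.86% in the fullest. The highest bin of 2L, 2L:6500001-6520000, had 16.9 and 8.70 per 100 from 26 and 18 trans-homolog pairs, so its replicates differed by about as much as its ratio stood above that of the other kept bins.

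Outside the separations used for the ranking, the highest-ratio bins also had more trans-homolog contact. At 20 to 100 kb, counting each pair in the bins of its ends, the median was 8.58 per 100 cis pairs in replicate 1 and 8.32 in replicate 2, against 6.64 and 6.12 in the other kept bins. The highest-ratio bins were thus 1.33 ± 0.048 times (SD, n = 2) as high, and their lower replicate exceeded the higher replicate of the other bins. Individual bins ranged widely, from 2.18 to 21.7 per 100 in replicate 1 and from 2.11 to 19.5 in replicate 2, and the groups overlapped. When pairs with the other end in another highest-ratio bin were left out, the ratio was 1.29 ± 0.042. At 1 to 3 kb, in same-strand pairs, the medians were 4.80 ± 0.25 per 100 in the highest-ratio bins and 2.49 ± 0.30 in the others, a ratio of 1.94 ± 0.14. At 100 kb to 1 Mb they were 10.9 ± 0.18 and 8.84 ± 0.31, a ratio of 1.23 ± 0.064. These pairs come from the same libraries as those of the ranking and are separate pairs.

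Counted bin by bin, 189 of the 260 highest-ratio bins (72.7%) lay above the median of kept bins at 20 to 100 kb in both replicates, where 34.2% of kept bins did. A ratio of at least 1.5 times that median in both replicates was seen in 58 highest-ratio bins (22.3%) and in 4.5% of kept bins. With pairs between highest-ratio bins left out, 177 (68.1%) were above the median in both replicates, against 33.7% of kept bins.

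The difference between the groups was smaller at long than at short separations. Over the summed pairs of each group, the highest-ratio bins were 1.71 and 1.91 times as high as the others in same-strand pairs at 1 to 3 kb, 1.94 and 2.11 times at 3 to 5 kb, 1.37 and 1.43 times at 20 to 50 kb, 1.2 and 1.25 times at 200 to 500 kb, and 1.06 and 1.08 times at 5 to 10 Mb, and the decline was not even from each range to the next. In the other kept bins the trans-homolog level rose with separation, from 4.53 per 100 cis ends at 5 to 10 kb to 6.46 at 20 to 50 kb in replicate 1 and from 3.85 to 5.79 in replicate 2. In the highest-ratio bins it was nearly level over the same range, at 8.89 and 8.89 in replicate 1 and at 7.73 and 8.25 in replicate 2. Separations between 3 and 20 kb are in part those that chose the bins.

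**Figure D3:**
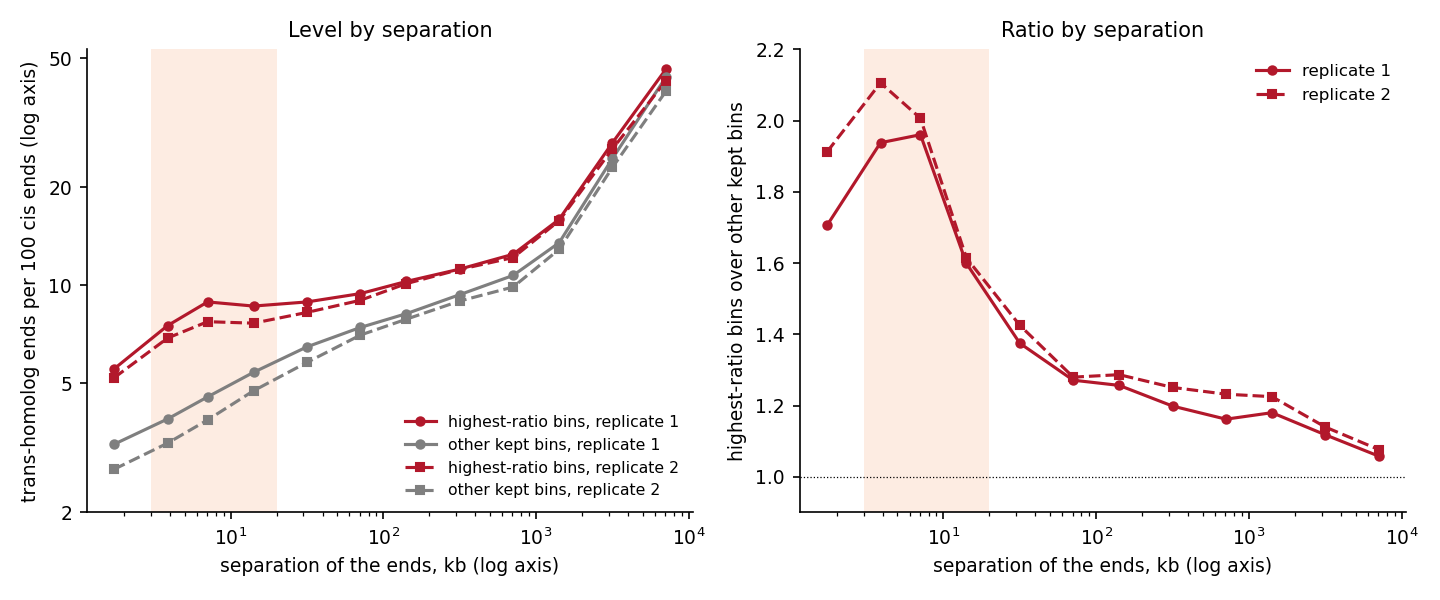
Trans-homolog ends per 100 cis ends (left, log axis) and the ratio of the highest-ratio bins to the other kept bins (right) against the separation of the ends, from 1 kb to 10 Mb, in summed pairs of each group and each replicate; the shaded range from 3 to 20 kb holds the pairs that the ranking used. The ratio lies near 2 at 3 to 10 kb and falls to 1.06 and 1.08 at 5 to 10 Mb, without reaching 1.

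The highest-ratio bins were not spread evenly over the arms. They made up 12% of kept bins on 2L (79 of 656), 9.08% on 2R (55 of 606), 6.38% on 3L (43 of 674) and 12.5% on 3R (83 of 663). Summed over the arms, their share was higher near both ends. In the 10% of the arm length at the telomere end, 86 of 317 kept bins (27.1%) were highest-ratio bins, and on 3R alone 43.6%. In the 10% at the centromere end of the assembled arm the share was 21.5% (17 of 79), and in the 10% after it 21.3% (34 of 160). Between 20% and 90% of the arm the share per 10% of the arm was between 3.27% and 8.41%. These shares are over all 4 arms, and the arms differed. On 2L the share was 38.3% from 10% to 20% of the arm and 17.9% both from 70% to 80% and from 80% to 90%, above its 14.9% at the telomere end. On 3L the 10% at the centromere end held no kept bins, so no share can be given there. On 3R the share was 30.8% in that section and 8.57% in the 10% after it. In a grouping chosen after these values were seen, the first 20% and last 10% of the arms held 52.7% of the highest-ratio bins (137 of 260) and 21.4% of kept bins.

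Contacts at 20 to 100 kb differed between these parts of the arm in the same direction. The 137 highest-ratio bins near arm ends had medians of 10.5 and 9.27 per 100 in the replicates, and the 419 other kept bins there had 7.90 and 7.60. In the rest of the arms, the 123 highest-ratio bins had 7.26 and 6.69, and the 1920 other kept bins had 6.46 and 5.89. Both groups were therefore higher near the arm ends, and the highest-ratio bins were above the others in either place. Of the 58 highest-ratio bins with at least 1.5 times the median in both replicates, 52 lay near arm ends, as did 49 of the 59 other kept bins past the same level. In the rest of the arms 68 of 123 highest-ratio bins (55.3%) were above the median of kept bins in both replicates, against 22.9% of the other kept bins there. Compared within 10 equal sections of the arm, the highest-ratio bins were above the others in 9 of 10 sections in replicate 1, with the exception of the section from 30% to 40% at 6.18 against 6.33, and in 10 of 10 in replicate 2. By arm, the ratio between the groups was 1.47 and 1.53 on 3R and between 1.22 and 1.26 on 2L, 2R and 3L.

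**Figure D4:**
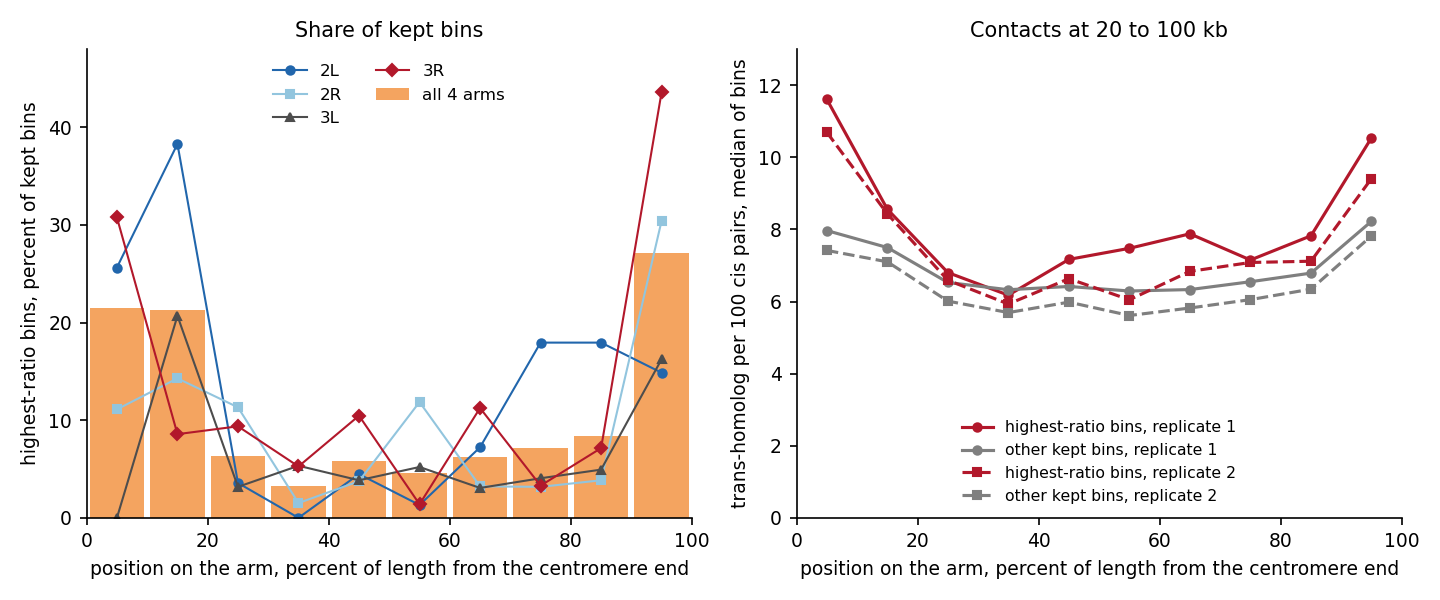
Share of kept bins that are highest-ratio bins (left; bars for all 4 arms, lines for each arm) and median trans-homolog per 100 cis pairs at 20 to 100 kb (right; each replicate, highest-ratio bins in red and other kept bins in grey) by section of 10% of the arm length from the centromere end (0) to the telomere end (100). The share reaches 27.1% in the last section and stays between 3.27% and 8.41% from 20% to 90% in the bars, with single arms up to 17.9% there, and the levels on the right rise at both ends in both groups. The 3L line has no kept bins behind it in the first section.

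Many highest-ratio bins were neighbours. Of the 260, 96 (36.9%) lay next to another one, whereas 13.1% of kept bins lay next to a highest-ratio bin. The other 164 stood alone, with no highest-ratio bin next to them. The adjacent bin was a kept bin for 190 of the 260 on the lower-coordinate side and for 186 on the other side. Some neighbours were therefore never ranked. The share with a neighbour was 22.9% with a minimum of 400 cis pairs and 18.8% with a mapping quality of at least 30, settings under which 131 and 48 bins were chosen, and 51.6% in bins of 40 kb. There were 24 runs of 2 bins, 6 of 3, 1 of 4, 2 of 5, 1 of 7 and 1 of 9. The longest run, 3R:25920001-26100000, had 328 trans-homolog over 3725 cis pairs in replicate 1 and 324 over 4227 in replicate 2, or 8.81 and 7.67 per 100, and 10.3 and 10.1 per 100 at 20 to 100 kb. The run of 7 bins, 3R:26640001-26780000, had 9.46 and 7.27 per 100, and 12 and 11.4 at 20 to 100 kb. Among runs of 5 bins, 2R:20920001-21020000 had 11.9 and 7.88 per 100, with 14.0 and 12.4 at 20 to 100 kb, and 2L:3080001-3180000 had 9.05 and 7.72, with 8.41 and 7.44. The 3 runs on 3R and 2R lay in the last 10% of the arm at the telomere end and were above the median of the highest-ratio bins at 20 to 100 kb, whereas the run on 2L was not.

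Bins with a neighbour and bins alone were alike in the ranking measure but not at longer separations. The 96 with a neighbour had medians of 8.24 and 7.54 per 100 within the bin, and the 164 alone had 8.46 and 7.32. At 20 to 100 kb the medians were 10.5 and 9.68 with a neighbour and 7.83 and 7.17 alone, still above the other kept bins in each replicate. Position on the arm was not held equal here, and the split by arm ends gave similar medians. Those were 10.5 and 9.27 near arm ends and 7.26 and 6.69 in the rest. The part of position in the neighbour comparison was not tested. The elevated level also extended past the highest-ratio bins. The 245 other kept bins that adjoin one had medians of 5.19 and 4.51 per 100 within the bin, and the 2094 that do not adjoin one had 4.11 and 3.50. At a distance of 100 kb on either side, kept bins had 5.56 and 4.82 per 100 upstream and 5.59 and 4.46 downstream in map orientation, with highest-ratio bins included, and the same positions around the other kept bins had 4.40 and 3.77, and 4.40 and 3.82.

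Cis folding around the bins was read as an insulation score, the log2 of cis pairs that join the 100 kb on either side over cis pairs within those sides, with the bin itself left out, so that a lower score means fewer contacts across the bin. The median was -2.32 and -2.48 in the highest-ratio bins and -2.07 and -2.20 in the other kept bins. The difference of -0.26 ± 0.023 (SD, n = 2) on the log2 scale exceeded the spread between replicates, and was -0.13 with a minimum of 400 cis pairs. It was not a mark of the highest-ratio bins alone. The next decile (10%) of the ranking was lower still, at -2.43 and -2.55. The highest 5 deciles lay between -2.32 and -2.43 in replicate 1, and the score then rose to -1.44 in the lowest decile. The contrast with the other kept bins thus came mainly from the lower part of the ranking. A local minimum of the pooled score, with no lower value within 5 bins on either side, was found in 40 of 251 highest-ratio bins that could be read (15.9%) and in 9.91% of kept bins. In each replicate alone the share was 13.5% and 14.5%, against 8.66% and 9.70% of other kept bins.

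**Figure D5:**
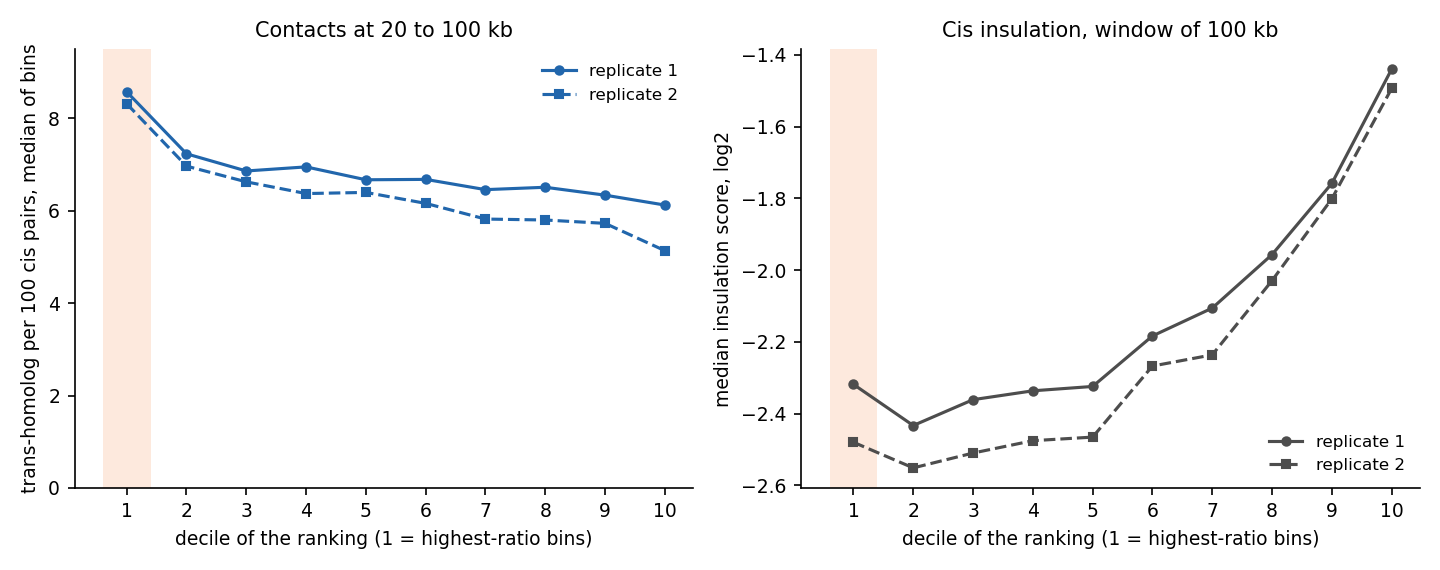
Median trans-homolog per 100 cis pairs at 20 to 100 kb (left) and median insulation score on the log2 scale (right) for each decile of the ranking, where decile 1 holds the highest-ratio bins (shaded), in each replicate. The level on the left steps from 7.24 and 6.97 in decile 2 to 8.58 and 8.32 in decile 1, whereas the score on the right is nearly level from decile 1 to 5 and rises to -1.44 and -1.49 in decile 10.

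The other deciles of the ranking give the setting of the long-range values. At 20 to 100 kb the step from decile 2 (7.10 ± 0.19 per 100) to the highest-ratio bins (8.45 ± 0.18) was larger than that between any other adjacent deciles in the mean of the replicates, and the lowest decile had 5.63 per 100.

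Several technical measures moved with the ranking. The highest-ratio bins had 0.908 ± 0.0098 times as many ends of pairs at 3 kb and above or between arms as the other kept bins, and 22.4% ± 0.24 of their ends were in pairs with both ends mapped at a quality of at least 30, against 25.0% ± 0.020. Among pairs with that mapping quality, the summed ratio was 7.75 per 100 in the highest-ratio bins and 3.93 in the others. Those pairs are a subset of the ones that ranked the bins, so this gap is a description only. Homolog misassignment, the share of inward trans-homolog over inward cis pairs at 300 to 600 bp, was 0.187% in the highest-ratio bins and 0.160% in the others, a ratio of 1.17 ± 0.041. Misassigned cis pairs at this rate would make up 2.34% of trans-homolog pairs in the highest-ratio bins and 3.99% in the others. The bins were ranked on trans-homolog over cis pairs, so the smaller share in the highest-ratio bins is largely set by the ranking. Without the exclusion of bins above 1%, the ratio of misassignment rates was 2.27, and 250 of the 260 bins were still chosen. The maternal share of cis pairs was 51.4% ± 0.089 and 51.6% ± 0.022. The share of ends in trans-heterolog pairs, those between different arms, was 15.3% ± 0.63 and 14.6% ± 0.62, and was 1.05 times as high in the highest-ratio bins in each replicate. Within the bin, the highest-ratio bins had 0.891 ± 0.0039 times as many cis pairs as the others. That count is the denominator of the ranking measure, so it is not independent of the choice. As a percent of all ends of pairs at 3 kb and above or between arms, trans-homolog ends came to 8.83% ± 0.28 and 7.20% ± 0.39. That is a ratio of 1.23 ± 0.028, smaller than that of the ranking measure, and these ends include those of the pairs that ranked the bins. The part of coverage, cis contact, mapping quality and trans-heterolog contact in the result was not tested.

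Contacts among the highest-ratio bins were close to those among other bins. At 200 kb to 2 Mb in cis, with expected counts fitted to the coverage of each bin and to separation, pairs of highest-ratio bins were in contact 1.02 and 1.03 times as often as pairs of other kept bins, from 6323 and 7249 observed pairs. Between chromosomes 2 and 3 the ratio was 1.05 in each replicate, from 2034 and 2516 pairs. The expected counts were fitted to the same contacts.

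The 6 loci that the study probed by Oligopaint FISH, which paints a chosen region with fluorescent oligonucleotides, together held 11 highest-ratio bins among 136 kept bins (8.09%), against the 10% of kept bins that the rule takes. In BX-C, the bithorax complex of Hox genes on 3R that is known for transvection, 2 of 13 kept bins were highest-ratio bins, 3R:12560001-12580000 with 8.90 and 6.57 per 100 and 3R:12620001-12640000 with 8.45 and 6.99. Over its 13 kept bins BX-C had 5.63 and 4.76 per 100 within the bins, and 9.91 and 9.51 at 20 to 100 kb, where the median highest-ratio bin had 8.58 and 8.32. The targets 28B and 2R16 held 3 of 24 and 2 of 36, and 3R19, 3R7 and 69C held 2 of 25, 1 of 9 and 1 of 29. At 20 to 100 kb, 28B had 7.86 and 7.51 per 100 and 69C had 5.75 and 5.44. Counts of 1 to 3 bins per target do not resolve differences between the targets.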

How the data were processed

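The authors aligned Hi-C reads with BWA (version 0.7.15) to an F1 diploid genome based on dm3, kept uniquely mapped ends and removed duplicates. They deposited, for each replicate separately, read pairs with the positions and strands of both ends and a mapping quality score for each end. These values are not normalized. Here pairs were counted as deposited, with no further filter on mapping quality, in bins of 20 kb in dm3 coordinates. Medians over bins were taken separately in each replicate and are printed for each, or as mean ± SD (n = 2). Contacts between bins were compared with expected counts fitted in 20 iterations. The scripts were checked on simulated data. The bins, lists and comparisons were chosen with earlier results of these data known. Bins named in the text were set by rule: the 10 highest, the highest of each arm, the longest runs, those at the threshold, those with most trans-homolog pairs and the Oligopaint targets. The concentrated bins, arm-end grouping and neighbour comparison were added after the values were seen. No genome of the dm3 build was used here, so sequences and genes are not given. Python 3.11.15, numpy 2.4.6, scipy 1.17.1, pandas 2.3.3 and matplotlib 3.10.9 were used.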

Additional observations from a re-analysis of the deposited data

How the results depend on the processing

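At 20 to 100 kb the highest-ratio bins lay above the other kept bins, and in insulation score below them, under each alternative run. In the ranking measure they lay above by construction, since the bins were chosen by that ratio or a variant of it. Its values below therefore describe the size of the gap only. The ratio of the ranking measure (2.03) came to 2.14 and 1.85 with a minimum of 100 and 400 cis pairs, and 2.27 and 1.88 for the top 5% and 20%. It was 2.11 with a mapping quality of at least 30, 1.97 with separations of at least 5 kb, and 2.53 and 1.82 in bins of 10 and 40 kb. In bins chosen with a pixel of 1 kb counted at most once, but read with each pair counted, it was 1.57. It was between 2.13 and 2.15 with either replicate left out, where the same replicate both chose the bins and was read. Read in the replicate that had not chosen the bins (1.61 as the mean of both directions), it was 1.76 and 1.49 for the top 5% and 20% and 1.56 with a minimum of 400 cis pairs.

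The ratio at 20 to 100 kb (1.33) was 1.41 and 1.24 for the top 5% and 20%, 1.22 and 1.44 in bins of 10 and 40 kb, 1.23 at 100 kb to 1 Mb, and 1.94 at 1 to 3 kb. It was 1.18 without the first and last 10% of each arm, 1.25 without 3R, and between 1.22 and 1.31 with either replicate left out. In bins chosen with a pixel of 1 kb counted at most once, but read with each pair counted, it was 1.17. The insulation difference (-0.26) was -0.37 and -0.13 with a minimum of 100 and 400 cis pairs, -0.36 for the top 20%, and -0.32 with a mapping quality of at least 30. It was -0.37 and -0.23 with windows of 40 and 200 kb, and -0.30 without the first and last 10% of each arm. With either replicate left out it was between -0.35 and -0.21. In the settings that follow, only the choice of bins changed, and insulation was read in all cis pairs. It was -0.28 in bins chosen with the geometric mean of both homologs' cis pairs, -0.23 with separations of at least 5 kb and -0.22 on same-strand pairs. In bins chosen with a pixel of 1 kb or of 100 bp counted at most once it was -0.35.

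The share of highest-ratio bins next to another (36.9%) was 22.9% with a minimum of 400 cis pairs, 26.9% and 46.0% for the top 5% and 20%, 18.8% with a mapping quality of at least 30, 22.3% in same-strand pairs, 19% and 51.6% in bins of 10 and 40 kb, and between 29.6% and 30.8% with either replicate left out. The ratio of misassignment (1.17) was 1.27 and 1.22 for the top 5% and 20%, 2.27 without the exclusion and 1.05 with a mapping quality of at least 30. It was 1.11 in bins of 40 kb, and between 1.11 and 1.17 with either replicate left out. In bins chosen with misassigned pairs subtracted it was 1.08, and in bins chosen on same-strand pairs 1.28. Misassignment itself was read in inward pairs throughout. Contacts among the highest-ratio bins, with an SD of 0.00068 between replicates, moved by more than that SD under each alternative: 1.02 and 1.01 with a minimum of 100 and 400 cis pairs, 1.03 and 1.02 for the top 5% and 20%, 1.02 with an exclusion above 0.5% or none, 1.01 with a mapping quality of at least 30, 1.03 with misassigned pairs subtracted, 1.02 with the geometric mean, separations of at least 5 kb or same-strand pairs, 1.03 at 2 to 10 Mb, and between 1.02 and 1.04 with either replicate left out. For these contacts, the settings on subtraction, the geometric mean, 5 kb and same-strand pairs changed only the choice of bins. Contacts were still read in all cis pairs. The causes were not tested.

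The settings on pixels, arm ends and 3R were chosen after seeing the data. Of the 260 bins, 232 were chosen again with a pixel of 100 bp counted at most once and 92 with a pixel of 1 kb. In the highest-ratio bins 100 cis pairs filled 19.5 pixels of 1 kb and 100 trans-homolog pairs filled 68.2. In the other kept bins these were 18.6 and 82.6. Counting a pixel once thus lowered both kinds of pairs, cis pairs by more, and lowered trans-homolog pairs more in the highest-ratio bins. What lies behind the smaller overlap was not tested. With either replicate left out, 181 and 171 were chosen again. With a mapping quality of at least 30 only 48 bins were chosen, 20 of them among the 260. Few trans-homolog pairs per bin (median 32) limit the ranking of single bins. No paired analysis was possible because there is 1 group of samples, so no samples could be paired across groups. The ratios and differences between groups of bins were taken within each replicate.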

Other observations

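The exclusion on misassignment removed 69 bins, of which 17 would have ranked among the highest-ratio bins. They lie on 2L (8 bins), 3R (4), 3L (3) and 2R (2). The bin 2L:22520001-22540000, near the centromere end of the assembled arm, had 53 trans-homolog over 104 cis pairs in replicate 1 and 55 over 134 in replicate 2, or 51.0 and 41.0 per 100, with a misassignment of 17.2%. The nearby bin 2L:22580001-22600000 had 23.1 and 24.9 per 100 with 19.8%. In both, the trans-homolog pairs were spread over many pixels, with 6.48% and 4.17% in the fullest. With a lower misassignment, 3L:9080001-9100000 had 17.1 and 17.4 per 100 with a misassignment of 1.75%, and 10.8 in each replicate at 20 to 100 kb. These bins were named after their values were seen.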
